A study of Arabidopsis thaliana with 12 samples.

Results

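Leaf transcripts of 10 Arabidopsis thaliana genes for mechanosensitive and osmosensing channels were followed through a change of air humidity. The genes were chosen by locus code, with earlier results of these data known. They comprise MCA1 and MCA2, OSCA1.1, OSCA1.2 and OSCA1.3, and MSL1, MSL2, MSL3, MSL9 and MSL10. They are 10 of 32833 genes in the deposited table, and 9 of them were abundant enough to be tested among 17368 genes. MSL9 was not. All are protein-coding and lie on chromosomes 1, 2, 4 and 5.

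The plants were wild-type Col-0, raised in soil at 60% relative humidity and 22 °C with 12 h of light and 12 h of darkness. They then spent 1 h in 1 of 3 chambers. The low setting was 40 to 45% relative humidity, the moderate one 55 to 60% and the high one 95%. Each condition has 4 libraries, and the moderate setting, close to that of growth, serves as the control. The labels leave unstated if replicates were single or pooled plants, and a chamber cannot be told apart from its humidity. P-values therefore measure the spread between these samples.

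Plant cells sense pressure, swelling and water loss in part through channels that open when the membrane is stretched. OSCA proteins form calcium-permeable channels gated by hyperosmotic stress and membrane tension. MCA proteins were found by their ability to rescue yeast lacking the calcium channel component Mid1, and they support calcium influx on touch and hypo-osmotic shock. MSL proteins are relatives of the bacterial small-conductance channel MscS, which releases solutes from swelling cells: MSL1 resides in the inner mitochondrial membrane, MSL2 and MSL3 in the plastid envelope, and MSL9 and MSL10 in the plasma membrane.

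Values are TPM, each a length-scaled share of all transcripts in a library, so levels of different genes can be set side by side. TPM keeps no depth, and the sequencing depth of each library is unknown. The 12 columns summed to between 998920 and 999399, and between 20691 and 20967 genes per library were above 0. The 3 leaf mesophyll markers (RBCS1A, CAB1 and CA1) summed to between 48245 and 68787 TPM per library. The root marker CASP1 was at 0 throughout, PYK10 and WER reached at most 0.51 TPM, and the floral markers AP3 and PI at most 0.19 TPM. SCR, listed as a root marker, was at 39.6 ± 5.70 TPM and the floral marker AG at 2.74 ± 0.718 TPM at moderate humidity (SD, n = 4). Reads shared between close relatives within the MCA, OSCA and MSL families may be divided between them, since the handling of such reads is not given in the sources used here.

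At moderate humidity OSCA1.1 was the most abundant of the 10 genes, at 47.96 ± 4.36 TPM (SD, n = 4). MCA1 followed at 33.2 ± 3.26, MSL2 at 28.5 ± 3.56 and MSL3 at 23.0 ± 6.77 TPM. A second tier held MSL10 at 12.3 ± 0.502, MSL1 at 9.37 ± 1.121, OSCA1.3 at 9.16 ± 6.40 and MCA2 at 7.17 ± 1.08 TPM. OSCA1.2 was at 2.70 ± 0.225 TPM. The 4 libraries of OSCA1.1 lay above all those of MCA1, and MSL3 lay above MSL10 and MSL10 above MSL1 without overlap. MCA1 and MSL2, MSL2 and MSL3, MSL1 and OSCA1.3, and OSCA1.3 and MCA2 overlapped as neighbours in this order. OSCA1.1 also had the highest mean at low and at high humidity, clear of the next gene at high humidity but overlapping MSL3 at low humidity, where MSL3 exceeded it in replicate 4 (59.7 against 40.4 TPM), and OSCA1.2 had the lowest of the 9 tested genes in all 3 conditions.

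MSL9, a plasma membrane channel best known from roots, was listed at 0 TPM in 11 of 12 libraries and at 0.04 TPM in high humidity replicate 3. Its annotated 3′ end overlaps ACL5, a gene on the other strand.

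**Figure D1:**
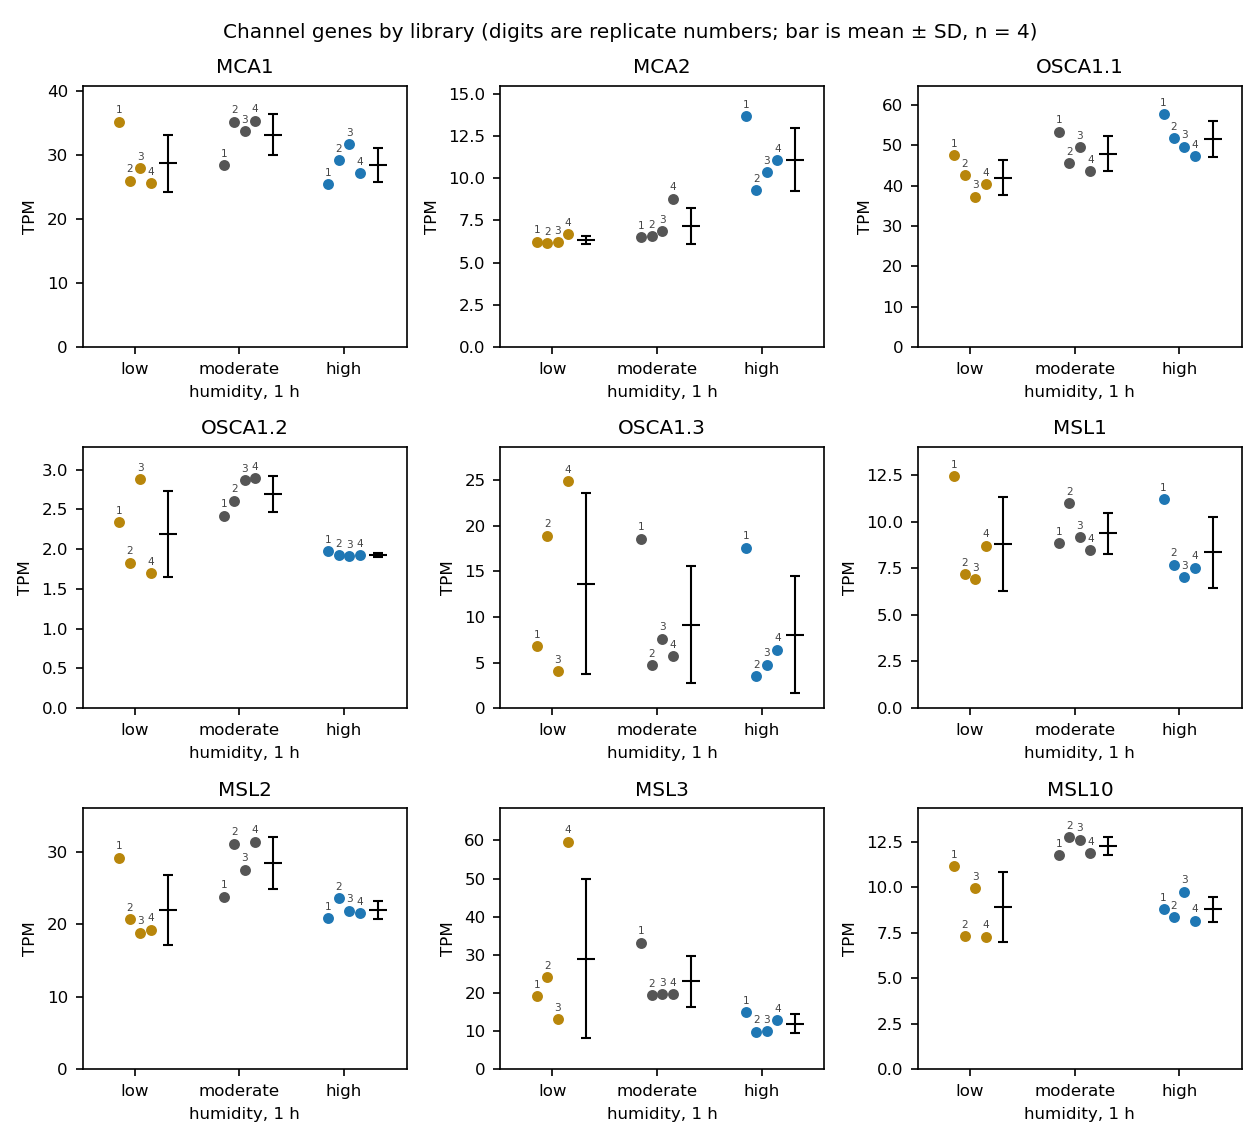
TPM of the 9 tested channel genes in each of the 12 libraries, by humidity; points are libraries numbered by replicate, and the bars give mean ± SD (n = 4). MCA2 lay at 9.28 to 13.7 TPM at high humidity and at 6.14 to 8.78 TPM in the other libraries, while OSCA1.3 spanned 3.52 to 24.9 TPM with wide scatter in every condition.

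High against moderate humidity asks how 1 h in nearly saturated air altered these transcripts. MCA2 rose, MSL10, MSL2 and OSCA1.2 fell, and the other 5 tested genes did not pass the test. Thus 4 of 9 tested channel genes were called, at an adjusted p of 0.05 by limma on log2(TPM + 1), beside 45.6% of all tested genes. By direction, 1 of 9 was higher and 3 of 9 were lower, beside 11.4% and 34.2% of all tested genes. The share of channel genes called was thus near that of all genes. Their median log2 fold change was -0.22, the same to 2 decimals as that of all tested genes (-0.22).

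This general shift bears on the falls. After median-of-ratios scaling, which sets the typical gene of each library level, the median of all tested genes was -0.02 and that of the channel genes -0.01. Under that scaling MCA2 and OSCA1.1 rose and none of the 9 fell, beside 33.5% of all tested genes called, 18.5% higher and 15% lower.

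MCA2 (AT2G17780) was at 6.49, 6.57, 6.85 and 8.78 TPM in the moderate libraries and at 13.7, 9.28, 10.3 and 11.1 TPM in the high humidity libraries. All 4 high humidity values exceeded all 4 moderate values, although moderate replicate 4 came close to high replicate 2. The gene rose by 0.56 on the log2 scale (SE 0.12, 95% confidence interval 0.30 to 0.82, limma adjusted p = 0.0029), a 1.48-fold change of TPM + 1. The call was kept in all 18 alternative settings, whose adjusted p ran from 5.7e-04 to 0.010.

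MCA1 (AT4G35920), its closest relative, did not follow. It was at 28.4, 35.2, 33.8 and 35.4 TPM at moderate and at 25.5, 29.2, 31.7 and 27.2 TPM at high humidity. These ranges overlapped, and the log2 fold change was -0.22 (SE 0.12, 95% confidence interval -0.47 to 0.03, limma adjusted p = 0.137), which became 0.01 after median-of-ratios scaling.

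The ratio of MCA2 to MCA1 within a library does not depend on how the library was scaled. It was 0.228, 0.187, 0.203 and 0.248 in the moderate libraries and 0.536, 0.318, 0.326 and 0.406 in the high humidity libraries. The low humidity libraries gave 0.177, 0.236, 0.222 and 0.261. The high humidity ratios lay above all 8 others, with no test made of the ratio, and high replicate 1 had both the highest MCA2 and the lowest MCA1 level of its condition.

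**Figure D2:**
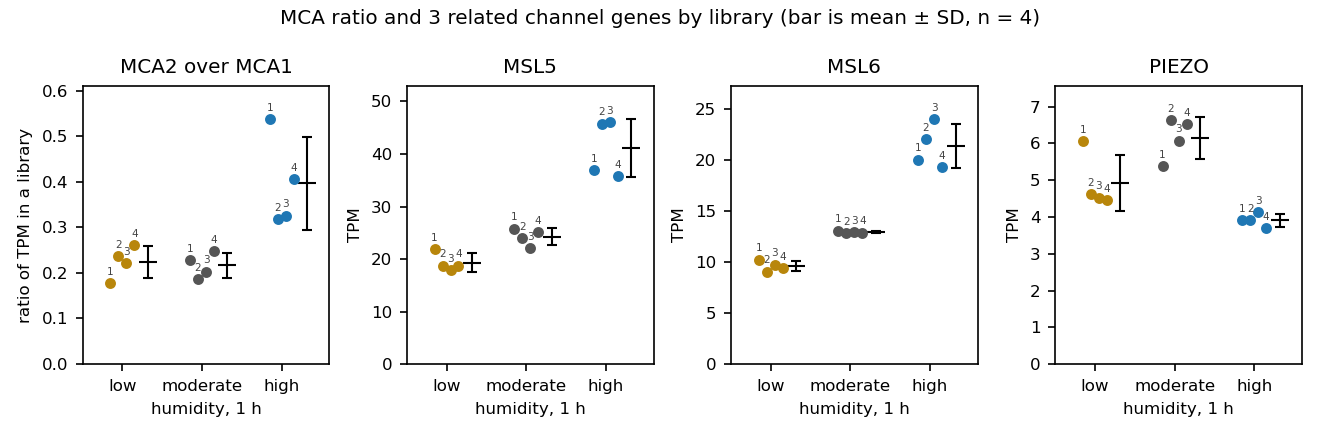
Ratio of MCA2 to MCA1 TPM in each library (left) and TPM of MSL5, MSL6 and PIEZO, by humidity; points are libraries numbered by replicate, bars give mean ± SD (n = 4). The ratio was 0.318 to 0.536 at high humidity and at most 0.261 elsewhere.

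OSCA1.1 (AT4G04340), whose mutant led to the naming of the family through its weak calcium response to hyperosmolality, was at 53.3, 45.5, 49.5 and 43.5 TPM at moderate humidity. At high humidity it was at 57.8, 51.8, 49.6 and 47.3 TPM. The ranges overlapped, and the log2 fold change was 0.10 (SE 0.10, 95% confidence interval -0.11 to 0.32, limma adjusted p = 0.402). After median-of-ratios scaling it rose by 0.34 (limma adjusted p = 0.014), the 1 of 18 alternatives in which it was called.

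OSCA1.2 (AT4G22120), a hyperosmolality-gated calcium channel of the same branch, was at 2.42, 2.61, 2.87 and 2.89 TPM at moderate and at 1.97, 1.92, 1.91 and 1.92 TPM at high humidity. The 4 and 4 values did not overlap, and the high humidity libraries were nearly alike. The gene fell by 0.33 on the log2 scale (SE 0.13, limma adjusted p = 0.047). This call was lost in 10 of 18 alternatives, among them median-of-ratios scaling (log2 fold change -0.17, adjusted p = 0.315) and 8 of the 12 settings that left out 1 library, without which the adjusted p reached 0.101 (moderate replicate 3). The ratio of OSCA1.2 to OSCA1.1 within a library was 0.0341 to 0.0406 at high humidity. It was 0.0454 to 0.0664 at moderate and 0.0421 to 0.0773 at low humidity, with no test made. The ratios of OSCA1.3 to OSCA1.1, MSL2 to MSL1, MSL3 to MSL2 and MSL10 to MSL1 overlapped between high and moderate humidity.

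OSCA1.3 (AT1G11960), a channel that in immune signalling takes part in closing stomata, did not separate the conditions. It was at 18.6, 4.74, 7.64 and 5.67 TPM at moderate humidity, at 17.6, 3.52, 4.78 and 6.41 TPM at high humidity, and at 6.78, 19.0, 4.06 and 24.9 TPM at low humidity. Low replicates 2 and 4, moderate replicate 1 and high replicate 1 were high, and the other 8 libraries were low. Its log2 fold change at high against moderate humidity was -0.21 (SE 0.63, 95% confidence interval -1.60 to 1.18, limma adjusted p = 0.798). With this scatter the interval is wide, and changes of either sign inside it remain compatible with the values. The within-condition SD on the log2 scale was 0.94, and 98.5% of all tested genes had a smaller one.

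Among the MSL genes, MSL10 (AT5G12080), a plasma membrane channel of cell swelling responses, fell in the most alternatives. It was at 11.8, 12.8, 12.6 and 11.9 TPM at moderate and at 8.81, 8.37, 9.75 and 8.17 TPM at high humidity. Every high humidity value lay below every moderate value. It fell by 0.44 on the log2 scale (SE 0.13, 95% confidence interval -0.71 to -0.17, limma adjusted p = 0.013). The call was kept in 17 of 18 alternatives and lost after median-of-ratios scaling (log2 fold change -0.22, adjusted p = 0.113).

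MSL2 (AT5G10490), which with MSL3 protects plastids from swelling and shapes their division, was at 23.8, 31.1, 27.6 and 31.4 TPM at moderate humidity. At high humidity it was at 20.8, 23.6, 21.9 and 21.5 TPM. The groups did not overlap, but moderate replicate 1 and high replicate 2 almost met. It fell by 0.35 (SE 0.13, limma adjusted p = 0.044), and the call was lost in 12 of 18 alternatives, among them median-of-ratios scaling (log2 fold change -0.12, adjusted p = 0.320). Without 1 library the adjusted p reached 0.109 (moderate replicate 4).

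MSL3 (AT1G58200) had the largest log2 fold change of the 9 genes as deposited, -0.88 (SE 0.38, 95% confidence interval -1.71 to -0.05), yet did not pass the test (limma adjusted p = 0.077). It was at 33.2, 19.5, 19.7 and 19.7 TPM at moderate, 14.99, 9.84, 9.95 and 12.9 TPM at high and 19.1, 24.2, 13.1 and 59.7 TPM at low humidity. The moderate and high groups did not overlap. The spread was pooled over the 3 conditions and takes in low replicate 4, the highest value of all. MSL3 was called in 3 of 18 alternatives. The limma adjusted p was 0.0069 without low replicate 4, 0.045 without low replicate 3, and 0.0054 with only moderate and high libraries in the fit. Without moderate replicate 1 the log2 fold change was -0.70 with an adjusted p of 0.176. Median-of-ratios scaling gave -0.65 with an adjusted p of 0.222.

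MSL1 (AT4G00290), the mitochondrial member, was at 8.46 to 10.99 TPM at moderate and at 7.03 to 11.2 TPM at high humidity. These ranges overlapped, and the log2 fold change was -0.16 (SE 0.17, 95% confidence interval -0.54 to 0.21, limma adjusted p = 0.465). Counting all 9 tested genes, the high and moderate libraries did not overlap in 1 gene that was higher (MCA2) and in 4 that were lower (OSCA1.2, MSL2, MSL3 and MSL10), beside 10.9% and 34.9% of all tested genes (45.8% in either direction).

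**Figure D3:**
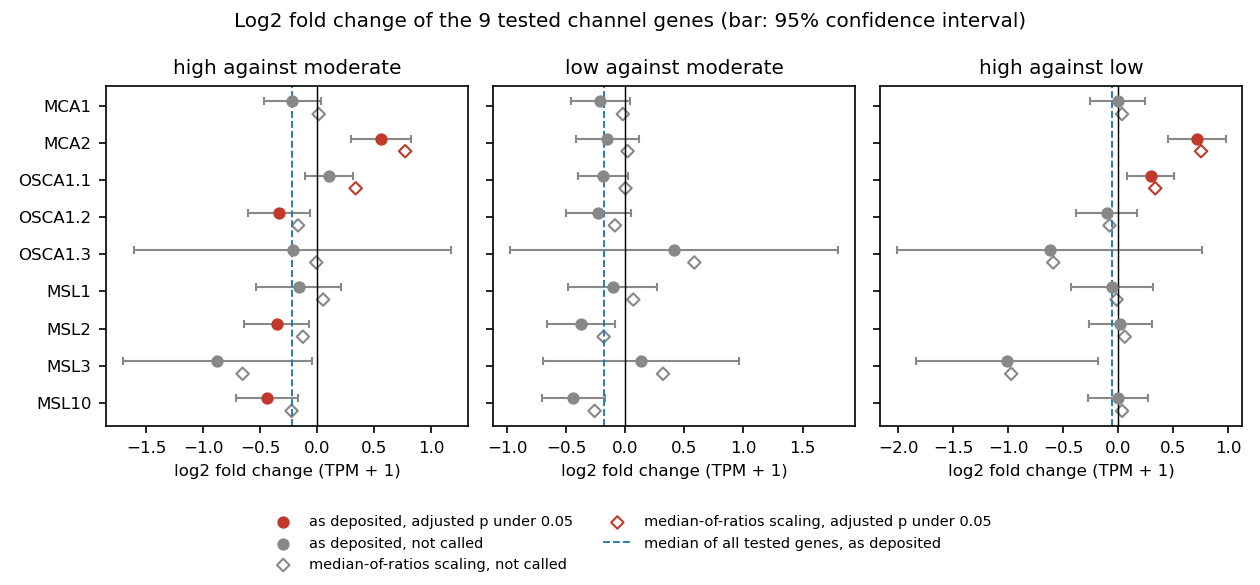
Log2 fold changes on the log2(TPM + 1) scale of the 9 tested channel genes in 3 comparisons; filled points are values as deposited with 95% confidence intervals, open diamonds are values after median-of-ratios scaling, red marks an adjusted p under 0.05, and the dashed line is the median of all tested genes. MCA2 stood to the right of 0 at high against moderate (0.56) and high against low humidity (0.71) under both scalings.

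The low chamber tested the reverse change, from the usual humidity to drier air. None of the 9 tested genes was called by limma at low against moderate humidity, beside 0.674% of all tested genes (0.443% higher and 0.23% lower). MSL10 and MSL2 alone had an unadjusted limma p under 0.05 among the 9, beside 5077 of all 17368 tested genes. MSL10 was at 11.1, 7.32, 9.95 and 7.28 TPM at low humidity, each value below the 4 moderate ones. It was the 1 channel gene without overlap in this comparison, beside 10.5% of all tested genes (1.73% higher and 8.76% lower). Its log2 fold change was -0.44 (SE 0.13, limma adjusted p = 0.080). MSL2 was at 29.2, 20.7, 18.8 and 19.3 TPM, with a log2 fold change of -0.37 (SE 0.13, limma adjusted p = 0.108).

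The median-of-ratios factor, which follows the typical gene of a library, was 1.11 in low replicate 1 and 0.910 to 0.928 in the other low humidity libraries. Low humidity replicate 1 also held the highest level of MCA1, OSCA1.1, MSL1, MSL2 and MSL10 among the low humidity libraries. Without it MSL10, MSL2 and MCA1 were called lower, with log2 fold changes of -0.54, -0.51 and -0.31 and limma adjusted p of 0.0077, 0.0071 and 0.033. Of all tested genes 32.3% were then called, 2.23% higher and 30% lower, so the 3 of 9 channel genes again stood close to the share of all genes.

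MCA2 was at 6.24, 6.14, 6.21 and 6.67 TPM at low humidity, within a narrow range at the lower end of the moderate values (log2 fold change -0.15, SE 0.12, limma adjusted p = 0.405). OSCA1.1, at 47.5, 42.7, 37.2 and 40.4 TPM, had a log2 fold change of -0.19 (SE 0.10, limma adjusted p = 0.211) that became 0.00 after median-of-ratios scaling. The remaining members had log2 fold changes between -0.23 (OSCA1.2) and 0.41 (OSCA1.3).

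High against low humidity sets the outer chambers side by side. MCA2 and OSCA1.1 were higher at high humidity and no channel gene was lower, 2 of 9 beside 23.7% of all tested genes (12.4% higher and 11.3% lower). MCA2, with 9.28 to 13.7 against 6.14 to 6.67 TPM, differed by 0.71 on the log2 scale (SE 0.12, limma adjusted p = 7.2e-04). This was a 1.64-fold difference of TPM + 1, called in all 18 alternatives. It was the 1 channel gene whose high and low libraries did not overlap, beside 26.3% of all tested genes (12.6% higher and 13.7% lower). OSCA1.1 differed by 0.29 (SE 0.10, limma adjusted p = 0.046), and high replicate 4 (47.3 TPM) fell just below low replicate 1 (47.5 TPM). Its call was lost in 11 of 18 alternatives, 8 of which left out 1 library (adjusted p up to 0.143, without high replicate 1).

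MSL10 and MSL2 were not called between the outer chambers. Their log2 fold changes at high against low humidity were -0.0038 (95% confidence interval -0.27 to 0.27) and 0.02 (-0.27 to 0.30), with limma adjusted p of 0.987 and 0.944. MSL3 had a log2 fold change of -1.01 (SE 0.38, limma adjusted p = 0.078), with 9.84 to 14.99 TPM at high and 13.1 to 59.7 TPM at low humidity. The comparisons with moderate humidity share their 4 control libraries, so their values are not independent of each other.

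OSCA1.3 and MSL3 varied most between libraries of the same condition. Their highest and lowest libraries differed 7.07-fold and 6.07-fold, against 1.39-fold for MCA1 and at most 2.23-fold for the other tested members. The within-condition SD of MSL3 was 0.58 on the log2 scale, larger than in 95.4% of tested genes. Among the other tested members it ran from 0.13 (OSCA1.1) to 0.27 (MSL1).

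The genes most like a member were found by the root-mean-square difference of log2(TPM + 1) over the 12 libraries, each gene set to its moderate mean. Closest to MSL3 were ZW9 (AT1G58270, a TRAF-like family protein gene, difference 0.16), the protein kinase gene AT5G01850 (0.17) and ACX1 (AT4G16760, 0.19), an acyl-CoA oxidase of peroxisomal fatty acid breakdown. ACX1 was at 131 TPM in low replicate 4 and at 40.1 to 69.9 TPM in the other low humidity libraries. It peaked in the same library as MSL3, but it was chosen for its likeness over these libraries. Closest to MCA2 were the bromodomain gene AT3G57980 (0.12), AT5G17280 (0.13) and EFE (AT1G05010, 0.13), which encodes an ethylene-forming enzyme.

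OSCA1.3 was added to this search after its values had been seen. Its nearest profiles were the transmembrane protein gene AT1G16850 (0.26), LEA14 (AT1G01470, 0.28) and the dehydrin gene ERD10 (AT1G20450, 0.28). Late embryogenesis abundant proteins and dehydrins are known to accumulate on water loss. ERD10 was at 891 and 804 TPM in low replicates 2 and 4, 864 TPM in moderate replicate 1 and 629 TPM in high replicate 1, and at 151 to 429 TPM in the other 8 libraries. These are the libraries in which OSCA1.3 was high, and each condition held at least 1 of them. The genes were chosen for their likeness over the same libraries, so this match follows from the choice. A link to water loss was not tested.

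**Figure D4:**
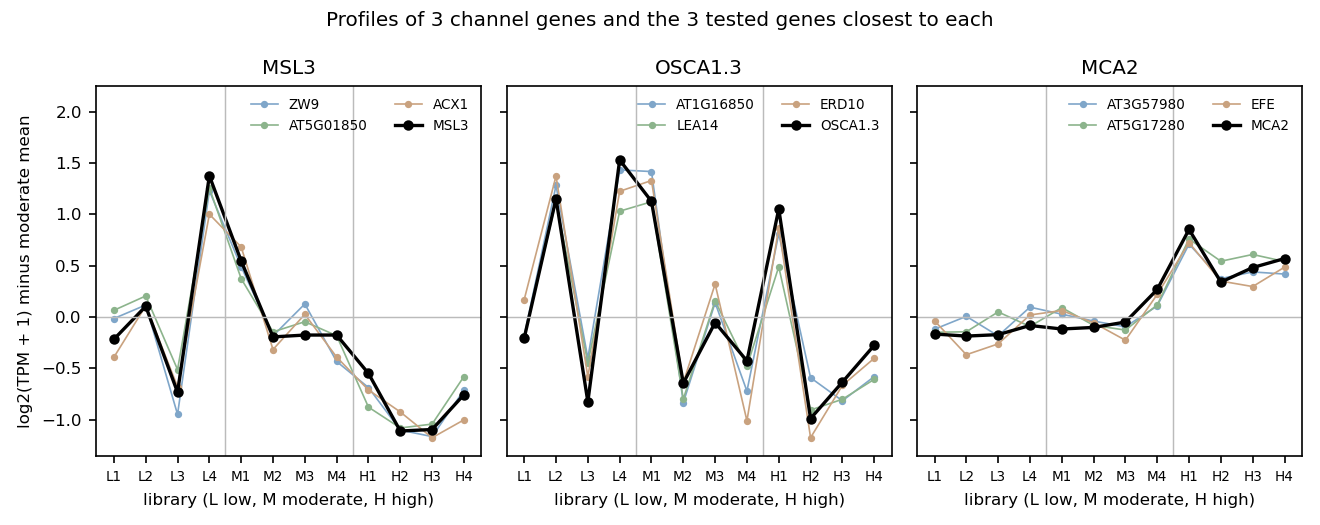
Log2(TPM + 1) minus its mean over the moderate libraries, for MSL3, OSCA1.3 and MCA2 (black) and the 3 tested genes closest to each (colours), over 12 libraries named by condition (L, M, H) and replicate. MSL3 peaked in low replicate 4 (59.7 TPM), and OSCA1.3 was high in low replicates 2 and 4, moderate replicate 1 and high replicate 1.

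Some further members of the same families showed changes of similar or greater size. Of 5 other MSL genes 2 were tested, and both rose at high against moderate humidity, beside 11.4% of all tested genes. MSL5 (AT3G14810) was at 25.8, 23.97, 22.1 and 25.1 TPM at moderate and at 37.0, 45.8, 46.1 and 35.8 TPM at high humidity, a rise of 0.73 on the log2 scale (SE 0.11, limma adjusted p = 1.6e-04). MSL6 (AT1G78610) was at 13.1, 12.8, 12.9 and 12.9 TPM at moderate and at 20.0, 22.0, 24 and 19.3 TPM at high humidity, a rise of 0.68 (SE 0.09, limma adjusted p = 6.1e-05). In both genes the low humidity values, 17.9 to 21.9 and 9.04 to 10.2 TPM, lay below all the moderate ones, with limma adjusted p of 0.099 and 0.056. At low against moderate humidity 8.76% of all tested genes were lower without overlap. MSL4 (at most 0.69 ± 0.141 TPM on average), MSL7 and MSL8 were too low to test, and MSL7 was at 0 in every library.

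Of 12 other OSCA family genes 9 were tested, and 1 rose and 6 fell at high against moderate humidity, with a median log2 fold change of -0.43. With median-of-ratios scaling these counts were 1 and 2. Among all tested genes 11.4% were higher and 34.2% lower as deposited, with a median of -0.22, and 18.5% and 15% after scaling. ERD4 (AT1G30360), named for early response to dehydration, rose by 0.57 (SE 0.21, limma adjusted p = 0.041; adjusted p up to 0.11 in alternatives). HYP1 (AT3G01100) fell by 0.66 (SE 0.13, limma adjusted p = 0.0015). AT4G15430 and AT4G02900 fell by 0.41 and 0.43, with limma adjusted p of 0.0092 and 0.011, and neither call held after that scaling (0.076 and 0.067). The row for RXW8 (AT1G58520) fell by 1.85 (SE 0.22, limma adjusted p = 5.8e-05), but the annotated locus spans a lipase gene, AT1G58525, on the same strand, whose name and description the row carries, so reads of these genes cannot be told apart. This row is included in the OSCA counts and median above.

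PIEZO (AT2G48060), the plant relative of animal touch channels, was at 5.38 to 6.64 TPM at moderate and at 3.7 to 4.13 TPM at high humidity. It fell by 0.54 (SE 0.11, limma adjusted p = 0.0020) and by 0.34 after median-of-ratios scaling (adjusted p = 0.0048). DEK1 (AT1G55350), a calpain with a membrane part needed for stretch-activated calcium currents, fell by 0.29 (SE 0.10, limma adjusted p = 0.028) and had -0.06 after scaling (adjusted p = 0.546).

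Lists of partner genes were set beside the channel genes, and no test was made of any list. The lists were chosen with earlier results of these data known, so their counts are descriptive and give no independent support. Among all tested genes 11.4% were higher and 34.2% lower at high against moderate humidity, with a median of -0.22. After median-of-ratios scaling these shares were 18.5% and 15%. Of 9 other calcium-permeable channel genes 8 fell and none rose (5 fell after median-of-ratios scaling), with a median of -0.48. The glutamate receptor-like genes GLR3.2, GLR3.7 and GLR3.3 fell by 0.88, 0.70 and 0.69 and the vacuolar channel gene TPC1 fell by 0.82 (limma adjusted p of 3.5e-04, 0.0015, 0.0017 and 7.6e-04). Of 10 tested calcium pump and exchanger genes, which return calcium from the cytosol, 4 rose and none fell (5 rose after scaling), with a median of 0.22. ACA10, ACA11, ACA1 and CAX2 rose by 0.58, 0.54, 0.77 and 0.34 (limma adjusted p of 0.010, 0.011, 0.038 and 0.043), with adjusted p up to 0.106 for ACA1 and 0.109 for CAX2 in alternatives.

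All 5 touch genes rose under both scalings, with a median of 1.68, beside 11.4% of all tested genes higher as deposited and 18.5% after scaling. The cell wall enzyme gene XTH22 (AT5G57560) rose by 6.92 (limma adjusted p = 1.5e-05). The calcium sensor genes CML24, CML12 and CAM2 rose by 2.19, 1.68 and 1.13 (limma adjusted p of 1.2e-07, 0.0071 and 8.2e-04). Of 10 plastid division genes, the setting in which MSL2 and MSL3 act, 5 fell and none rose, with a median of -0.31. Among all tested genes 34.2% were lower (15% after scaling), with a median of -0.22. ARC5, the dynamin-related protein of the division ring, fell by 0.81 (SE 0.13, limma adjusted p = 2.8e-04) and PDV2 by 0.52, and these were the 2 that also fell after scaling. Of 5 genes for contact sites between endoplasmic reticulum and plasma membrane, where MSL10 has partners, 2 fell, beside 34.2% of all tested genes. They were SYT1 (by 0.48) and SYT5 (by 0.47), and SYT1 alone after scaling. The other 3 were not called, among them SYT7 (-0.19) and VAP27-1 (0.06). No gene of these partner and family lists was called at low against moderate humidity, beside 0.674% of all tested genes.

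Guard cell markers moved with high humidity in part. FAMA fell by 0.99 on the log2 scale (SE 0.15, limma adjusted p = 2.6e-04), while MYB60 and KAT1 had -0.40 and -0.16 with limma adjusted p of 0.122 and 0.331. SCR and AG also fell, by 0.57 and 1.02, and the mesophyll gene CAB1 and the phloem gene SUC2 rose by 0.48 and 0.39 (limma adjusted p of 0.0078, 0.0013, 0.0013 and 0.0040). The other mesophyll and vascular markers were not called, with 0.05 (RBCS1A), -0.08 (CA1) and -0.26 (IRX3). Neither were the epidermal markers ATML1 (-0.08) and PDF1 (0.06). CAB1 rose at low against moderate humidity too, by 0.75 (limma adjusted p = 0.0055). The fall of SCR was lost after median-of-ratios scaling (adjusted p = 0.145). The 3 guard cell markers summed to 43.6 to 59.5 TPM at moderate, 30.8 to 39.2 TPM at high and 27.4 to 46.4 TPM at low humidity. Mesophyll markers summed to 48245 to 49664, 53781 to 61551 and 53969 to 68787 TPM at moderate, high and low humidity, epidermal markers to 29.9 to 39.2, 27.1 to 36.9 and 22.6 to 30.6 TPM, and vascular markers to 116 to 139, 153 to 181 and 126 to 152 TPM. SUC2 made up most of the vascular sums, with a mean of 125 TPM at moderate humidity against 3.14 TPM for IRX3. The part of these markers in the channel results was not tested. In leaf RNA of mixed cells, fewer cells of a type and less RNA per cell cannot be told apart.

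**Figure D5:**
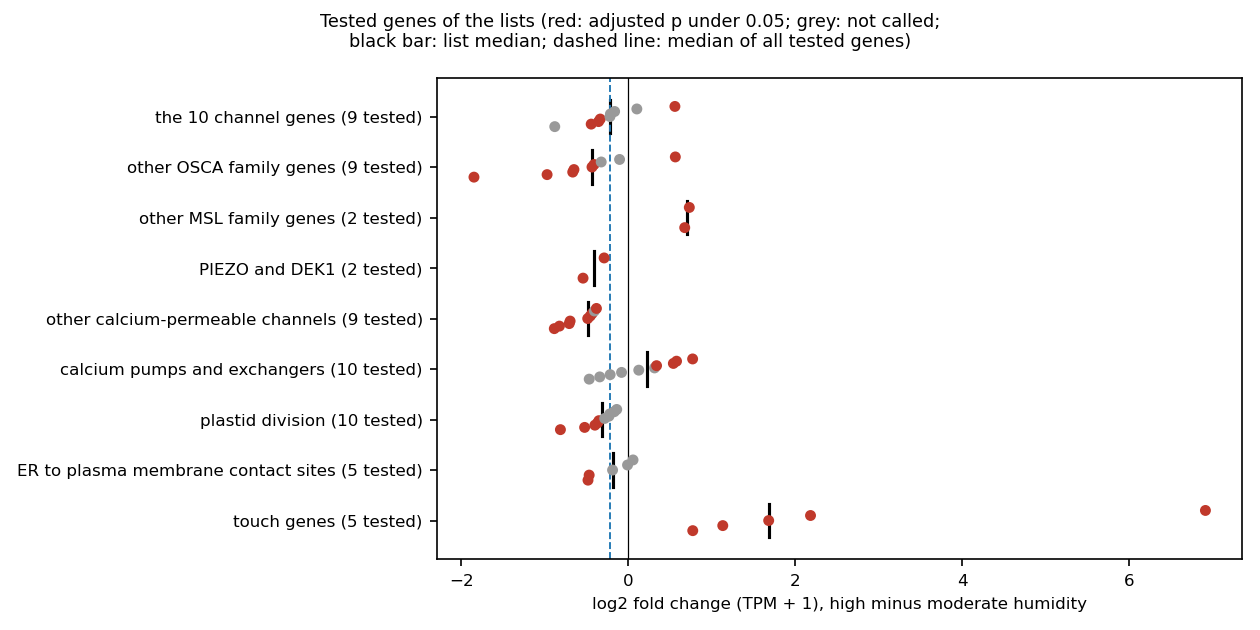
Log2 fold change at high minus moderate humidity of every tested gene in the 10 channel genes and 8 related lists; red points passed an adjusted p of 0.05, grey ones did not, black bars are list medians and the dashed line is the median of all tested genes (-0.22). MCA2, at 0.56, is the rightmost of the channel genes, and both other MSL genes tested lie at 0.68 and 0.73.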

How the data were processed

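Leaf RNA of 12 samples was sequenced as paired ends after TruSeq library preparation, per the labels' protocols. The deposited values are TPM per gene; the authors' table is named as raw counts, but each column sums to between 998920 and 999399. The tools fastp, HISAT2 and RSEM and the build TAIR10 are named in the submitters' processing notes; for versions, roles and strand handling no source used here gives details. The authors' 3 columns of condition means were not used. Genes were tested with limma 3.58.1 in R 4.3.3 on log2(TPM + 1), with a mean per condition, an intensity trend, robust moderation and 9 residual degrees of freedom, for genes of at least 1 TPM in at least 4 libraries, with Benjamini-Hochberg adjustment over 17368 genes. Fold changes on this scale understate changes of low genes. The members and lists were chosen with earlier results of these data known. All members are described; of each related list up to 4 genes with the smallest adjusted p at high against moderate humidity are named, with ERD4, MSL4, MSL7 and MSL8 and the markers added after their values were seen. In 6 alternative settings and 12 that left out 1 library each, 1 choice was changed at a time, except that the intensity trend and robust moderation were dropped together. No sequence is shown because the reference assembly at hand (TAIR10.1) is not the build of the table; locus symbols were taken from it where needed.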

Additional observations from a re-analysis of the deposited data

Results flagged for a closer look

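In 27 groups of 4 libraries (9 tested genes, 3 conditions), chance flags about 1 in 20. Moderate humidity replicate 1 stood apart in MSL3 at 33.17 TPM, with the other 3 at 19.5 to 19.7 TPM. High humidity replicate 1 stood apart in OSCA1.2 at 1.97 TPM, with the other 3 at 1.91 to 1.92 TPM, a gap of a few hundredths of a TPM in a gene of very even values.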

How the results depend on the processing

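MCA2 kept its direction and its call in all 18 alternatives at high against moderate and at high against low humidity. Median-of-ratios scaling gave 3213 genes higher and 2604 lower at high against moderate humidity (1981 and 5938 as deposited), with 2 channel genes higher and 0 lower (1 and 3), and 140 higher and 8 lower at low against moderate humidity (77 and 40). The share of lower calls went from 75 to 44.8%, from 34.2 to 5.41% and, at high against low humidity, from 47.7 to 43.5%. It turned the sign of uncalled log2 fold changes of MCA1 (0.0138) and MSL1 (0.0526) at high against moderate, of MCA2 (0.0195), OSCA1.1 (0.0019) and MSL1 (0.0679) at low against moderate, and of MCA1 (0.0344) and MSL10 (0.0351) at high against low humidity.

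Replicate numbers showed no clear pairing of the samples. Of 12 same-numbered pairs of libraries, 4 had deviations correlated above 0.1 (-0.319 to 0.241), beside 11 of 36 differently numbered pairs (-0.259 to 0.424). These correlations alone do not settle if the samples were paired. With the replicate number as a block, 1 channel gene was lower at high against moderate humidity, beside 5162 of 17368 tested genes. At low against moderate humidity 25 genes were then higher and 1 lower. The latter counts were 46 and 13 with no filter, 38 and 6 with only the 2 conditions compared, and 24 lower with neither intensity trend nor robust moderation. At high against low humidity 1 channel gene was higher with no filter, with neither trend nor robust moderation, or with only the 2 conditions compared. The main setting had 2 of 9, beside 12.4% of all tested genes.

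Leaving out 1 library gave 1 to 4 channel genes lower at high against moderate, 0 to 3 lower at low against moderate, and 1 to 2 higher and 0 to 1 lower at high against low humidity. Of the 17368 tested genes 4728 to 6824 were then lower at high against moderate humidity. At high against low humidity 1798 to 2593 were higher and 1426 to 1982 lower. At low against moderate humidity it gave 18 to 388 genes higher and 1 to 5217 lower, both highest without low replicate 1. Uncalled log2 fold changes that turned sign ran from -0.63 to 0.16 for OSCA1.3 at high against moderate, from -0.28 to 0.42 for MSL3 at low against moderate, and at high against low humidity from -0.0596 to 0.0928 (MCA1), -0.19 to 0.11 (MSL1), -0.0464 to 0.16 (MSL2) and -0.084 to 0.10 (MSL10). The causes were not tested, and without depth the counting error of low genes such as OSCA1.2 is unknown.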
